A study of Mus musculus with 8 samples.

Results

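Translation initiation and elongation factors are the proteins that bring ribosome, messenger RNA and transfer RNA together and then move the ribosome along. Their transcripts were taken as the gene rows whose names start with Eif and a digit from 1 to 5 or with Eef and the digit 1 or 2, leaving out the 4 eIF2 kinases Eif2ak1 to Eif2ak4. This gave 56 of 16647 gene rows. Initiation starts when eIF2 carries the initiator tRNA to the small ribosomal subunit, aided by eIF1, eIF1A, eIF3 and eIF5, and eIF2B reloads eIF2 with GTP. The eIF4 factors bind the cap and unwind the leader, and 4E-binding proteins such as Eif4ebp1 block the cap-binding subunit until the kinase mTORC1 phosphorylates them. After eIF5B joins the subunits, eEF1A delivers aminoacyl-tRNAs, eEF1B recharges eEF1A, and eEF2 moves the ribosome by a codon.

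The cells were Tri-PyMT cells, a cultured mouse mammary tumour line from an animal carrying MMTV-PyMT, Fsp1-cre and Rosa26mT/mG. The mammary tumour virus promoter drives the PyMT oncogene, the Fsp1 (S100a4) promoter drives Cre, and the reporter makes a red protein until Cre recombines it and a green one afterwards. Cells labelled GFP+ were compared with cells labelled RFP+, both sorted by fluorescence from cells of that one genotype, grown in the same medium, with no other treatment named in the labels. Each population had 4 samples, which are 2 Drop-seq libraries on 2 lanes each, and the table pools the lanes, so n is 2 libraries per population. The labels do not name separate cultures for the libraries of a population. A p-value here therefore reflects no more than the spread among 4 libraries, shared in part across genes, and that spread may be technical.

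The libraries labelled GFP+ held 2598187 and 2550319 counts in 1597 and 1798 cells, and those labelled RFP+ held 3081009 and 2988631 counts in 1998 and 1997 cells. The reporter rows ran opposite to the labels. The green reporter row, CUSTOM_GFP, stood at 99.7 and 104 CPM (counts scaled to one common library total) in GFP+ labelled libraries, against 612 and 590 CPM in RFP+ labelled ones, and CUSTOM_RFP stood at 2943 and 3053 CPM in GFP+ labelled libraries, against 132 and 137 CPM in RFP+ labelled ones. Population names below are therefore those of the labels. S100a4, whose promoter drives Cre, stood at 1843 and 2114 CPM in GFP+ labelled libraries, against 648 and 676 CPM in RFP+ labelled ones. Why the reporter rows ran opposite to the labels was not tested. The 9 epithelial markers summed to 954 and 903 CPM in GFP+ labelled libraries, against 2225 and 2304 CPM in RFP+ labelled ones. The 7 mesenchymal markers summed to 6072 and 6471 CPM in GFP+ labelled libraries, against 3210 and 3106 CPM in RFP+ labelled ones. Of 8 listed immune markers 5 had a count and summed to 6.93 and 8.23 CPM in GFP+ against 10.7 and 13.4 CPM in RFP+ labelled libraries. Of 5 listed fibroblast markers 4 had a count and summed to 9.62 and 7.45 CPM in GFP+ against 2.27 and 2.01 CPM in RFP+ labelled libraries. Of 5 listed endothelial markers 3 had a count and summed to at most 1.54 CPM in any library, and Lyz2 and the erythroid gene Alas2 were at 0. The part of these differences in the results below was not tested.

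Transcripts of translation factors together took 2.10% and 2.01% of counts in GFP+ against 2.08% and 2.04% in RFP+ labelled libraries, and the populations overlapped. Without Eef1a1, the factor with the most counts, the shares were 1.84% and 1.80% in GFP+ against 1.92% and 1.89% in RFP+ labelled libraries and did not overlap, and neither difference was tested. CPM are shares of a library, so amounts per cell were not measured. Of the 56 rows, 55 had a count in at least 1 library, and 51 passed the filter of at least 10 CPM in either population and 20 counts in all. Among the 51 tested, 7 were higher in GFP+ (13.7%) and 16 lower (31.4%) at an edgeR adjusted p under 0.05. Over all 7595 genes tested, 15.7% were higher and 14.9% lower by the same rule. The median log2 fold, GFP+ over RFP+, was -0.09 for the tested factors and 0.00 for all genes tested. The share higher is near that of all genes, and the share lower is above it, where all genes are not matched to the factors in level. With a filter of 50 CPM the share higher lay below that of all genes, and the counts are given at the end. For 13 of the 51 factors the libraries of the populations overlapped, and the share among all genes tested was not counted.

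Transcript length moved with these folds. Across all 7546 tested genes with an annotated length, Spearman's rho between the log2 fold and the length of the longest coding transcript was 0.36, and over the 51 factors it was 0.45. These genes share libraries, and rho is given as a description. When length and GC content were taken out with per-gene offsets, rho over the factors was 0.02. Then 3 factors were higher (5.88%) and 11 lower (21.6%), against 12.6% higher and 11.8% lower among all genes tested. The median of the factors was -0.04. Each called change named below is therefore given with its value under these offsets. Whether length itself or something that goes with it sets the folds was not tested.

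**Figure D1:**
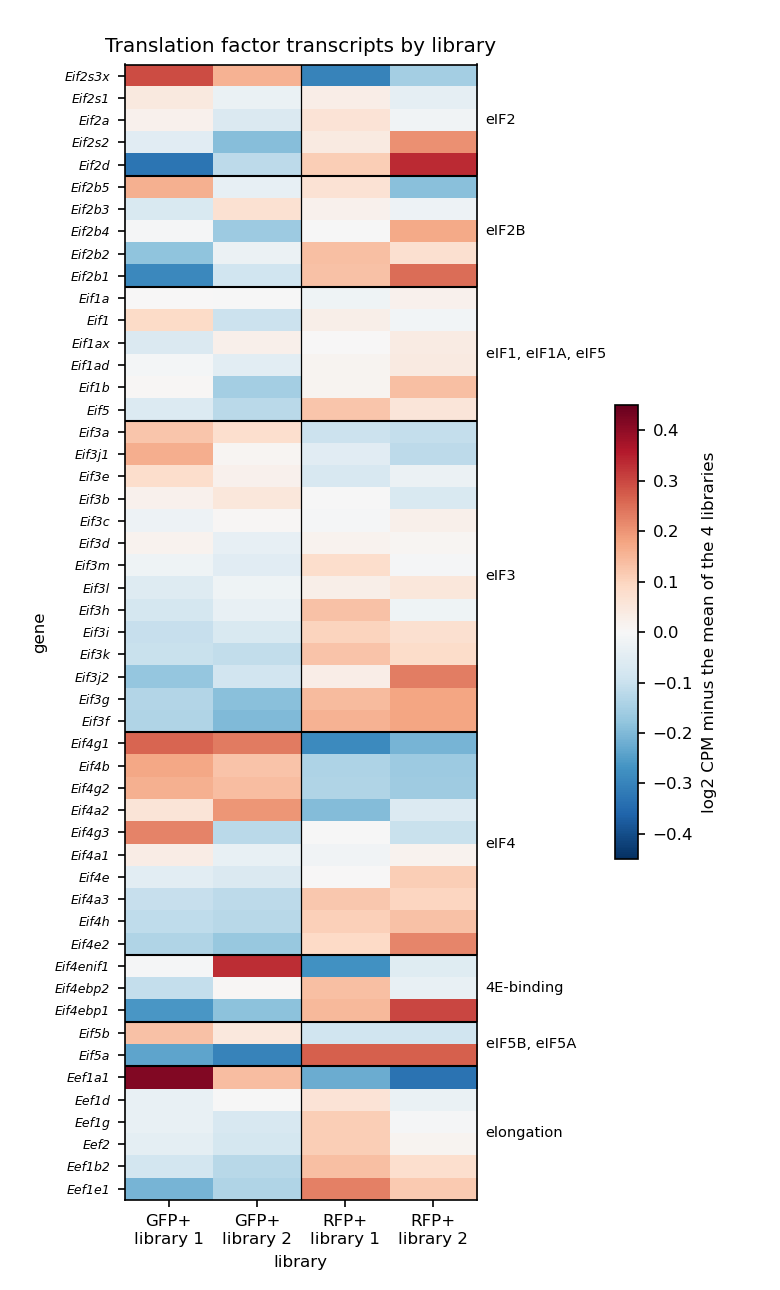
Heat map of the 51 tested factors (rows, grouped by complex) in the 4 libraries (columns), coloured by log2 CPM minus the mean of the 4 libraries. Eef1a1, Eif4g1, Eif4b and Eif4g2 are red in both GFP+ labelled libraries and blue in both RFP+ labelled ones, and Eif5a, Eif3f and Eif4ebp1 show the reverse.

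Promoter sequence was examined because many growth genes carry CACGTG, the E-box bound by MYC and its partners, close to their start. Promoters from RefSeq (GRCm38.p6) reach from 250 bases before to 50 after a start, and 45 of the 56 factors had one under their symbol. CACGTG, which reads the same on both strands, was found for 12 of the 45 (26.7%), against 8.09% of all 27025 symbols with a promoter. The windows of 30 bases below show it in capitals, 5′ to 3′ on the gene's strand, for 6 factors that passed the test in one direction or the other.
Eif5a, chr11:69921443-69921472, minus strand: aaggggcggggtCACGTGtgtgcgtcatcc
Eif3f, chr7:108934335-108934364, plus strand: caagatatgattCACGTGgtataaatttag
Eif3k, chr7:28981915-28981944, minus strand: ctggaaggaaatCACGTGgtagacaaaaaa
Eif4h, chr5:134639488-134639517, minus strand: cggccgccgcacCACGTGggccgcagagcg
Eef2, chr10:81176576-81176605, plus strand: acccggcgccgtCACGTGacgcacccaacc
Eif4g1, chr16:20672661-20672690, plus strand: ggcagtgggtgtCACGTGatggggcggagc
The hexamer began 74, 68, 44, 96, 43 and 54 bases before a listed start in these promoters, in the order shown. Of the 10 tested factors with the hexamer, 2 (Eif4g1 and Eif3a) were higher and 5 (Eif5a, Eif3f, Eif3k, Eif4h and Eef2) lower in GFP+ labelled libraries by edgeR. Of the 31 tested factors whose promoters lack it, 4 were higher and 9 lower, and the difference between these shares was not tested. The hexamer thus stood in promoters of factors of both directions, and also in those of Eif4e, Eif4a1 and Eif1b, which did not pass. For Eif3a it began 22 bases after the start, and Eif4g1 had another that began 15 bases after it. The GC box GGGCGG, searched on both strands, was in the promoters of 77.8% of the factors and of 38.2% of all symbols. For both motifs a symbol counted if any of its promoters held the letters. The 27025 symbols include genes not tested here, and the shares among tested genes alone were not counted. A match is a description of these letters and not evidence of binding.

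A second sequence feature of this gene class is the 5′ terminal oligopyrimidine tract, a C at the first base followed by pyrimidines, by which mTORC1 controls the translation of many ribosomal protein and elongation factor messages. At the RefSeq start, a C followed by at least 4 pyrimidines was found for 2 of 45 factors (4.44%), against 3.01% of all symbols. The windows of 40 bases show 20 bases before the start and 20 from it, with the pyrimidine run in capitals.
Eif3f, chr7:108934395-108934434, plus strand: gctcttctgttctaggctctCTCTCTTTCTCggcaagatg
Eif2s3x, chrX:94212632-94212671, minus strand: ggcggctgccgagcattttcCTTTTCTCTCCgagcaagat
Allowing the start to lie up to 5 bases to either side gave 24.4% of factors and 21.2% of all symbols. Eef1a1 was among these near matches and Eef1b2 and Eef2 were not, while Eef1d and Eef1g had no promoter under their symbol. A match at the start thus depends on the base at which the start is annotated. Eif3f was lower and Eif2s3x higher in GFP+ labelled libraries.

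Among elongation factors, Eef1a1 was called higher and 3 others lower. Eef1a1 (GRCm38, chr9:78478449-78489151, minus strand), the GTPase that delivers aminoacyl-tRNA to the ribosome, was at 2603 and 2146 CPM in GFP+ labelled libraries, against 1672 and 1548 CPM in RFP+ labelled ones. The populations did not overlap, and the GFP+ labelled libraries differed from each other by more than the RFP+ labelled ones did. The log2 fold was 0.55 ± 0.057 (SE) (edgeR adjusted p 4.14e-10). With length and GC offsets it was 0.59, so Eef1a1, at 1794 bases a short transcript, went against the trend of its length class, where it lay at the 96.7th percentile of log2 folds. Divided by the length of the longest coding transcript, its CPM was also the highest of the factors, 1323 per kb in GFP+ and 897 per kb in RFP+ labelled libraries. Whether counts in these libraries rise with transcript length was not examined, so this division is a description and not a measured level. Of the windows of 50 bases in its transcript, 59.2% also occur in transcripts of 20 other annotated genes, so its counts depend on how reads of those copies were assigned. Over the whole transcript, windows were also shared for Eef1g (64.3%), Eif3j1 (39.8%), Eif3m (37.3%), Eif2s3x (36.2%), Eif1 (31.6%), Eif2s2 (27.8%), Eif3h (26.2%) and Eif4a3 (24.4%). Of the last 500 windows, 31.8% were shared for Eef1a1, 42% for Eif3m, 36.2% for Eif4a3, 29.4% for Eif3e, 18.8% for Eif3h and 14.8% for Eef1g. For Eif3j1, Eif2s3x, Eif1 and Eif2s2 this was 0%, so the limit may weigh less on them. Where in a transcript the reads lie was not tested.

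The exchange complex eEF1B and the translocase did not follow. Eef1b2, a nucleotide exchange subunit of eEF1B, was at 1215 and 1180 CPM in GFP+ labelled libraries, against 1414 and 1356 CPM in RFP+ labelled ones. It was lower by a log2 fold of -0.22 ± 0.050 (edgeR adjusted p 0.000573), and by -0.20 with offsets. Eef1g and Eef1d, the other eEF1B subunits measured, had log2 folds of -0.12 and -0.05 and did not pass in edgeR (adjusted p 0.0674 and 0.523). The counts of Eef1a1 over those of the 3 eEF1B subunits together were 0.830 and 0.696 in GFP+ labelled libraries, against 0.476 and 0.469 in RFP+ labelled ones. With 2 libraries against 2 the smallest two-sided exact permutation p is 0.333, so no test was made of this or any other ratio. The ratios shown were chosen with the folds of their genes known.

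Eef2, the translocase, was at 719 and 701 CPM in GFP+ labelled libraries, against 799 and 746.5 CPM in RFP+ labelled ones. This was a log2 fold of -0.14 (edgeR adjusted p 0.0491). With offsets the fold was -0.05 and did not pass, and without GFP+ library 1, GFP+ library 2 or RFP+ library 1 the edgeR adjusted p was 0.0808, 0.124 and 0.343 in turn. Eef1e1, a small protein related to eEF1B that sits in the multi-synthetase complex, was at 140.5 and 148 CPM in GFP+ labelled libraries, against 190.2 and 176 CPM in RFP+ labelled ones. It was lower by a log2 fold of -0.36 (edgeR adjusted p 0.000396) and by -0.40 with offsets. Eef1a2, the form of eEF1A made in muscle and neurons, had counts in GFP+ library 1 alone, at 0.385 CPM. Eef2k, the kinase that inhibits eEF2, stood between 3.53 and 6.49 CPM in every library and was not tested.

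The eIF4 group split in both directions. Of its 11 rows 10 were tested, of which 3 were higher, 3 lower and 4 did not pass. The scaffolds Eif4g1 and Eif4g2 and the cofactor Eif4b were the higher ones. Eif4g1 (chr16:20668313-20692884, plus strand), the scaffold that ties the cap-binding protein to the helicase and to eIF3, was at 471 and 461 CPM in GFP+ labelled libraries, against 322 and 339 CPM in RFP+ labelled ones. The populations were well apart, with a log2 fold of 0.48 ± 0.060, an edgeR adjusted p of 2.56e-08 and 0.40 with offsets. Eif4g2, a related scaffold without the cap-binding protein's site that serves cap-independent initiation, was at 901 and 887 CPM in GFP+ labelled libraries, against 733.5 and 722 CPM in RFP+ labelled ones. On the log2 scale the fold was 0.28 (edgeR adjusted p 4.22e-05). Its longest coding transcript has 7995 bases, and with offsets the fold was 0.10 and did not pass (edgeR adjusted p 0.119). Eif4b, which stimulates the helicase, was at 338 and 328 CPM in GFP+ labelled libraries, against 272 and 268 CPM in RFP+ labelled ones. It was higher by a log2 fold of 0.29 (edgeR adjusted p 0.000400) and by 0.24 with offsets.

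Eif4e, Eif4a1 and Eif4a2 did not pass the test. Eif4e, the cap-binding protein, was at 128 and 127 CPM in GFP+ labelled libraries, against 132 and 143 CPM in RFP+ labelled ones. Its log2 fold was -0.12 and did not pass in edgeR (adjusted p 0.271). With offsets the fold was -0.27 and passed (edgeR adjusted p 0.0130). Eif4a1, the main helicase, was at 478 and 457 CPM in GFP+ labelled libraries, against 462.5 and 472 CPM in RFP+ labelled ones, with a log2 fold of -0.01 ± 0.057. The populations overlapped. Of the 50-base windows of Eif4a1, 65.3% occur in other transcripts, against 0% of its last 500 windows. Eif4a2, its paralog, was at 83.5 and 92.1 CPM in GFP+ labelled libraries, against 70.1 and 77.0 CPM in RFP+ labelled ones, a log2 fold of 0.24 (edgeR adjusted p 0.0760). Its populations did not overlap, and in cells thinned to equal depth the fold was 0.40 and passed (edgeR adjusted p 0.0305), whereas with offsets it was 0.18 and did not.

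The 3 lower genes of the group were Eif4a3, Eif4h and Eif4e2. Eif4a3, the helicase of the exon junction complex, was at 949.9 and 939.9 CPM in GFP+ labelled libraries, against 1110 and 1091 CPM in RFP+ labelled ones. Its log2 fold of -0.23 had an edgeR adjusted p of 0.000400, and with offsets it was -0.08 and did not pass. Eif4e2, a cap-binding relative that represses translation, was at 194 and 189 CPM in GFP+ labelled libraries, against 226 and 248 CPM in RFP+ labelled ones. It was lower by a log2 fold of -0.32 (edgeR adjusted p 0.000545) and by -0.36 with offsets. Eif4h, a helicase cofactor like Eif4b, had a log2 fold of -0.25, opposite in sign to that of Eif4b (edgeR adjusted p 0.0114). It did not pass with offsets, at -0.16, nor without GFP+ library 1 or RFP+ library 2 (edgeR adjusted p 0.0627 and 0.0682). Eif4e3 was at 1.15 CPM in GFP+ library 1 and at 0 elsewhere.

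Eif4ebp1, the mTORC1-controlled repressor that sequesters eIF4E, was lower in GFP+ labelled libraries. It was at 149 and 157 CPM there, against 198 and 220.2 CPM in RFP+ labelled ones. The log2 fold was -0.46 ± 0.077 (edgeR adjusted p 9.70e-06), and with offsets it was -0.42. The counts of Eif4ebp1 over those of its target Eif4e were 1.16 and 1.24 in GFP+ labelled libraries, against 1.49 and 1.54 in RFP+ labelled ones. The counts of Eif4g1 over those of Eif4e were 3.67 and 3.64 in GFP+ labelled libraries, against 2.43 and 2.37 in RFP+ labelled ones. Neither ratio overlapped between the populations. The other 2 of the 3 tested repressors, Eif4ebp2 and the eIF4E transporter Eif4enif1, had under 31 CPM in every library and did not pass, with log2 folds of -0.12 and 0.32.

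**Figure D2:**
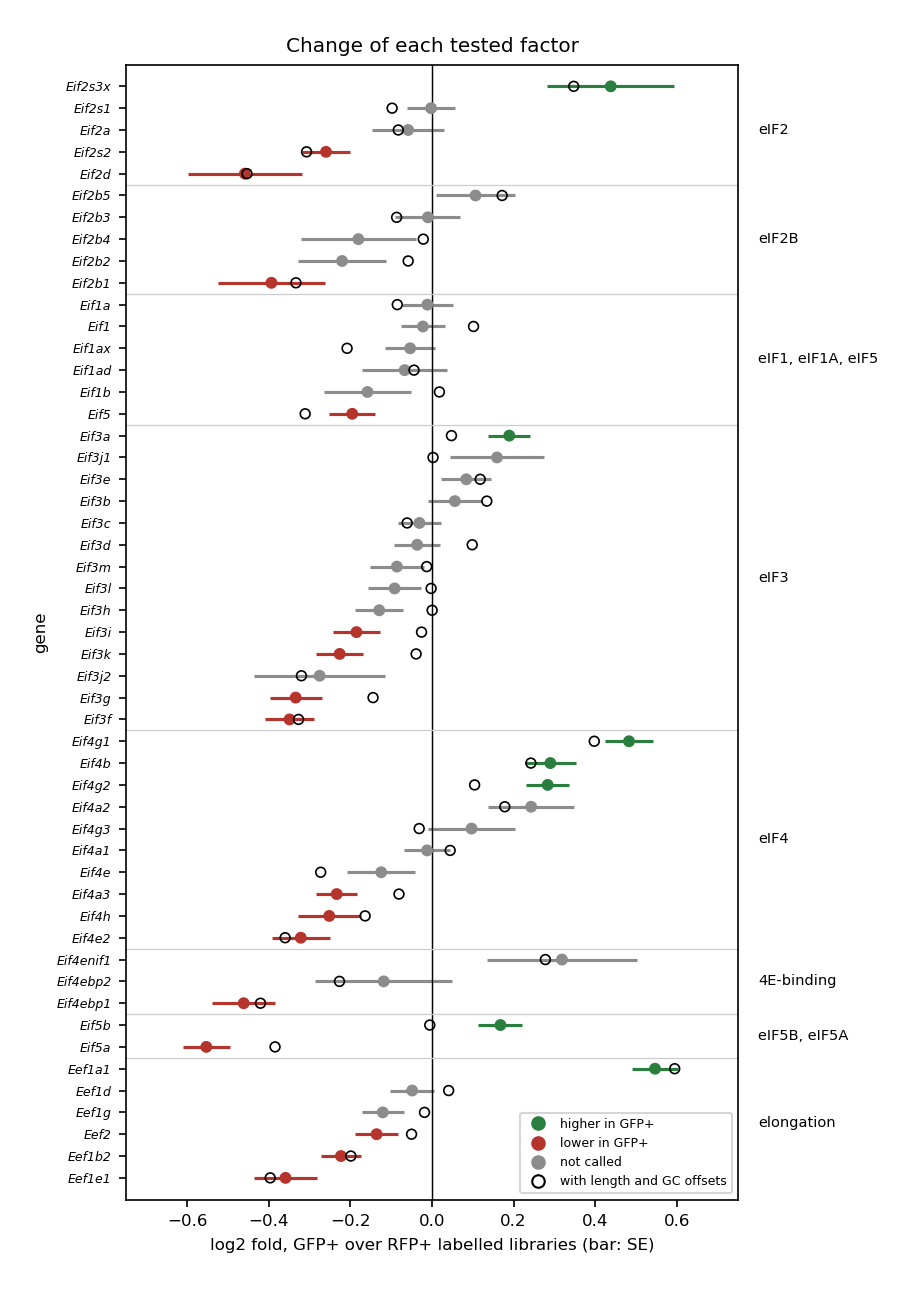
Log2 fold of GFP+ over RFP+ labelled libraries for each of the 51 tested factors, by complex, with the SE as a bar and the value with length and GC offsets as an open circle. Filled points are green for the 7 higher, red for the 16 lower and grey for the 28 that did not pass. For Eif4g2, Eif3a and Eif5b the open circle lies close to 0, and for Eef1a1, Eif4g1, Eif3f and Eif4ebp1 it lies near the filled point.

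**Figure D3:**
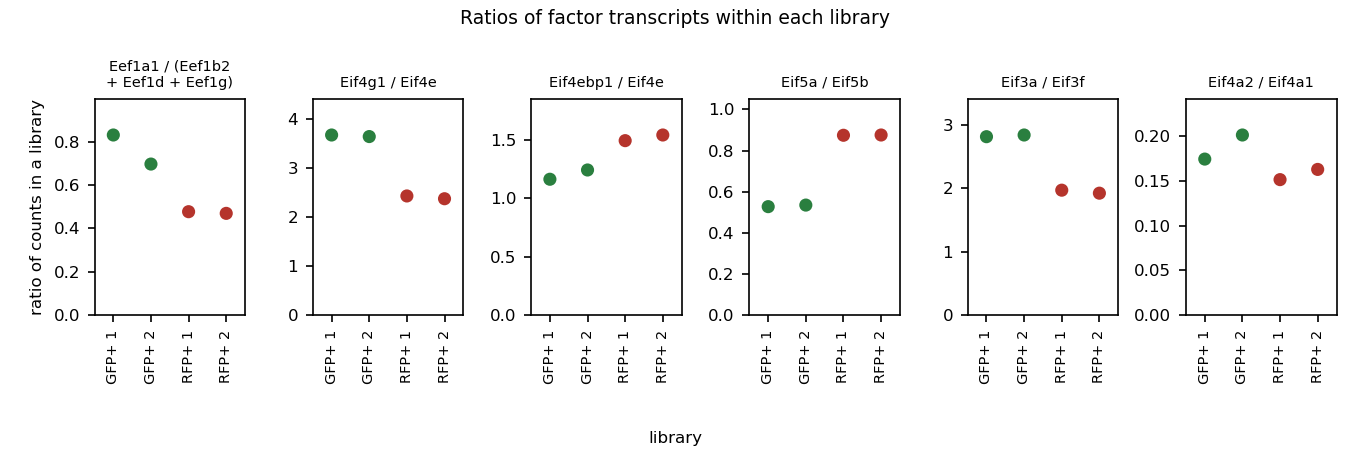
Ratios of counts of factor transcripts within each library, on axes from 0, with GFP+ labelled libraries in green and RFP+ labelled ones in red. Eef1a1 over the eEF1B subunits, Eif4g1 over Eif4e, Eif3a over Eif3f and Eif4a2 over Eif4a1 are higher in both GFP+ labelled libraries, and Eif4ebp1 over Eif4e and Eif5a over Eif5b are lower.

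The eIF3 complex, the largest initiation factor, had 14 rows, all tested. Of these 1 was higher, 4 were lower and 9 did not pass, with a median log2 fold of -0.09. Eif3a, the large subunit on which the core is built, was at 952 and 920 CPM in GFP+ labelled libraries, against 817 and 809 CPM in RFP+ labelled ones. On the log2 scale the fold was 0.19 (edgeR adjusted p 0.00435), and 0.05 with offsets, where it did not pass. Eif3f, a small subunit of the deubiquitinase-like pair f and h, was at 339 and 324 CPM in GFP+ labelled libraries, against 415 and 422 CPM in RFP+ labelled ones. It was lower by a log2 fold of -0.35 ± 0.060 (edgeR adjusted p 1.56e-05) and by -0.33 with offsets. Eif3g, an RNA-binding subunit, was at 268 and 258 CPM in GFP+ labelled libraries, against 325 and 332 CPM in RFP+ labelled ones. Its log2 fold of -0.33 had an edgeR adjusted p of 7.31e-05, and with offsets the fold was -0.14 and did not pass.

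The other lower subunits were Eif3k and Eif3i, with log2 folds of -0.23 and -0.19 and edgeR adjusted p of 0.00260 and 0.0123. Eif3i did not pass without GFP+ library 1 or RFP+ library 1 (edgeR adjusted p 0.0914 and 0.0559). With offsets Eif3k and Eif3i lay near 0, at -0.04 and -0.03, and Eif3f was the one subunit of the 14 that still passed. The counts of Eif3a, Eif3b and Eif3c over those of Eif3f, Eif3g, Eif3i and Eif3k were 1.43 and 1.44 in GFP+ labelled libraries, against 1.13 and 1.13 in RFP+ labelled ones. The choice of these 7 fixes the direction of that ratio, and no difference between subunits was tested. Spearman's rho of log2 fold with length over the 14 subunits was 0.57. Among the rest, Eif3c, Eif3d and Eif3b had log2 folds of -0.03, -0.04 and 0.06 and did not pass. Eif3j2 shares 91.8% of its 50-base windows with other genes, chiefly its near copy Eif3j1, so neither gene's value can be taken alone. Of the last 500 windows, 90% are shared for Eif3j2 and 0% for Eif3j1, so this holds chiefly for Eif3j2 if reads lie there.

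The ternary complex group, eIF2 and the factors that can stand in for it, had 6 rows, of which 5 were tested. Of these 1 was higher and 2 were lower. Eif2s1, the alpha subunit whose phosphorylation shuts down initiation under stress, was at 431 and 410.1 CPM in GFP+ labelled libraries, against 428 and 407 CPM in RFP+ labelled ones. The log2 fold was -0.0023 ± 0.059 and the populations overlapped. Eif2s2, the beta subunit, was at 593.5 and 538 CPM in GFP+ labelled libraries, against 633 and 709 CPM in RFP+ labelled ones. It was lower by a log2 fold of -0.26 (edgeR adjusted p 0.000728) and by -0.31 with offsets. Without RFP+ library 2 the edgeR adjusted p was 0.0608.

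Eif2s3x, the X-linked gamma subunit that binds GTP, was at 39.6 and 36.1 CPM in GFP+ labelled libraries, against 26.3 and 29.1 CPM in RFP+ labelled ones. This was a log2 fold of 0.44 ± 0.155 (edgeR adjusted p 0.0280). With offsets it was 0.35 and did not pass (edgeR adjusted p 0.0985), and without GFP+ library 1 or RFP+ library 1 the edgeR adjusted p was 0.157 and 0.194. Its Y-linked copy Eif2s3y had no count in 7390 cells, which allows up to 0.0406% of cells with a count, counting error only. Of the 3 subunits of eIF2, beta passed as lower, gamma as higher and alpha did not pass, and the difference between subunits was not tested. Eif2d, which can deliver the initiator tRNA without GTP, was at 34.3 and 39.6 CPM in GFP+ labelled libraries, against 46.4 and 54.2 CPM in RFP+ labelled ones. It had a log2 fold of -0.46 (edgeR adjusted p 0.0111), and -0.45 with offsets, and without GFP+ library 1 or RFP+ library 2 the edgeR adjusted p was 0.129 and 0.166.

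The 5 subunits of eIF2B, the exchange factor that reloads eIF2 and is the target of stress signals, were all tested, and 1 was lower. Eif2b1, the regulatory alpha subunit, was at 39.3 and 45.1 CPM in GFP+ labelled libraries, against 52.6 and 57.2 CPM in RFP+ labelled ones. Its log2 fold was -0.39 (edgeR adjusted p 0.0203), and -0.33 with offsets, where it did not pass. Without GFP+ library 1 or RFP+ library 2 the edgeR adjusted p was 0.204 and 0.151. Eif2b3, the most abundant by CPM, was at 146 and 160.4 CPM in GFP+ labelled libraries, against 155 and 151 CPM in RFP+ labelled ones, with overlapping populations and a log2 fold of -0.01. Eif2b5, the catalytic subunit, had a log2 fold of 0.11 and did not pass.

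Of the 6 factors for scanning and start codon choice, 1 was lower. Eif5, the GTPase activator of eIF2, was at 479.6 and 460.3 CPM in GFP+ labelled libraries, against 546 and 520.3 CPM in RFP+ labelled ones. This was a log2 fold of -0.20 (edgeR adjusted p 0.00727), and -0.31 with offsets, and without RFP+ library 1 the edgeR adjusted p was 0.0682. Eif1, the gatekeeper of start codon choice, was at 1003 and 883 CPM in GFP+ labelled libraries, against 961 and 936 CPM in RFP+ labelled ones. The GFP+ labelled libraries lay on either side of the RFP+ labelled ones, and the log2 fold was -0.02. Eif1ax, an eIF1A gene, had a log2 fold of -0.05 and did not pass, whereas with offsets it was -0.21 (edgeR adjusted p 0.00694).

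The last initiation step and the factor that follows it were called in opposite directions. Eif5a is the hypusine-bearing factor that helps ribosomes through stalling sequences, and Eif5b is the GTPase that joins the subunits. Eif5a (chr11:69916714-69921958, minus strand) was at 382 and 366 CPM in GFP+ labelled libraries, against 544 and 544 CPM in RFP+ labelled ones. The log2 fold was -0.55 ± 0.058 (edgeR adjusted p 4.20e-10), and with offsets it was -0.38. Eif5b was at 725 and 684 CPM in GFP+ labelled libraries, against 622 and 621 CPM in RFP+ labelled ones. The log2 fold was 0.17 (edgeR adjusted p 0.0153), and with offsets it was -0.0055. Without GFP+ library 1 or RFP+ library 1 the edgeR adjusted p was 0.137 and 0.0617. The counts of Eif5a over those of Eif5b were 0.527 and 0.535 in GFP+ labelled libraries, against 0.874 and 0.876 in RFP+ labelled ones. Eif5a2, a second eIF5A gene, was between 5.35 and 9.41 CPM and was not tested.

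Over all complexes, 7 factors passed in the same direction under all 13 alternative settings. Eef1a1, Eif4g1 and Eif4b were higher, and Eif5a, Eif4ebp1, Eif3f and Eef1b2 were lower in GFP+ labelled libraries. The share of all genes tested that passed in every setting was not counted. Of the 23 factors that passed in edgeR without offsets, 12 also passed with them, and 2 more, Eif4e and Eif1ax, passed with offsets only. DESeq2 called 4 higher, the 3 above and Eif4g2, and 8 lower, the 4 above and Eif3g, Eif4a3, Eef1e1 and Eif2s2.

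Most factors lay below the median of genes of their own length. When tested genes were split into 5 equal bins by length, the median log2 fold of all genes was -0.15, -0.08, 0.00, 0.10 and 0.21, shortest to longest. The medians of the 11, 12, 14, 6 and 8 factors in these bins were -0.19, -0.15, -0.06, 0.14 and 0.16. Of the 7 higher factors 6 lay in the 2 longest bins, and of the 16 lower ones 15 lay in the 3 shortest. In all, 16 factors lay above and 35 below the median of their bin. Between the 2 libraries of a population the log2 ratio had a rho with length of -0.07 over the factors in GFP+ and -0.04 in RFP+ labelled libraries. With the median length over a gene's coding transcripts in place of the longest, rho over the factors was 0.24.

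**Figure D4:**
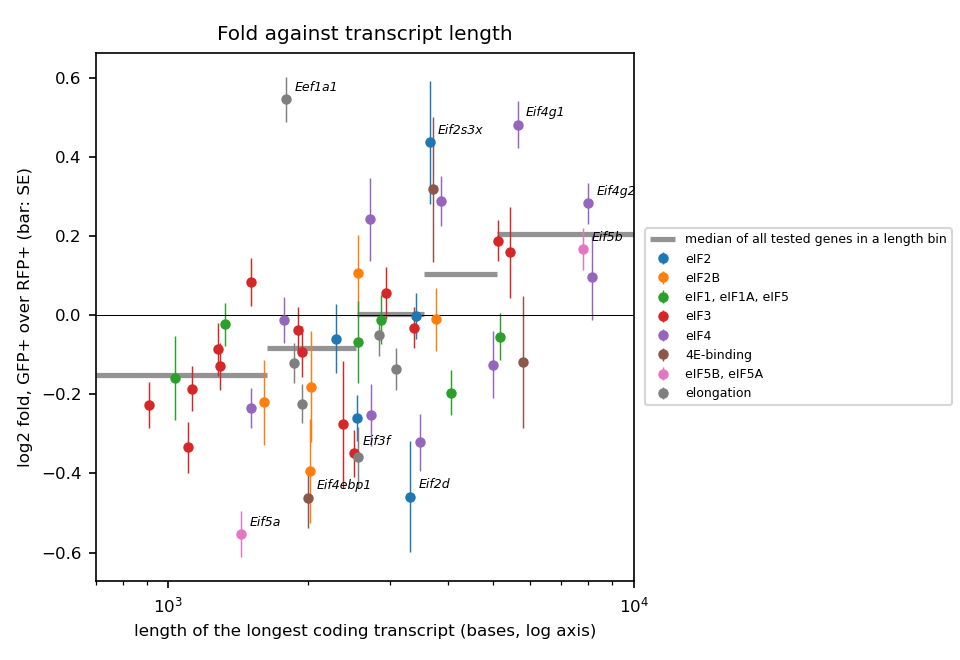
Log2 fold of GFP+ over RFP+ labelled libraries (SE as bars) against the length of the longest coding transcript on a log axis, for the 51 tested factors coloured by complex, with the median of all tested genes in each of 5 length bins as grey lines. The lines climb to the right, and Eef1a1 lies far above and Eif5a far below the line of its bin.

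Other genes of protein synthesis gave a mixed picture. Among 10 release, recycling and reinitiation genes tested, 2 were higher and 1 lower, and with offsets 1 and 1. Eif6, which keeps the large subunit from joining too early, was at 263 and 251 CPM in GFP+ labelled libraries, against 415 and 433 CPM in RFP+ labelled ones. It was lower by a log2 fold of -0.73 ± 0.063 (edgeR adjusted p 1.80e-12) and by -0.53 with offsets. Abce1, the ribosome recycling ATPase, was higher by 0.33 (edgeR adjusted p 0.000138) and by 0.22 with offsets. Among 11 tested genes of the eIF2 kinase and phosphatase arms, 3 were higher and 4 lower, and with offsets 2 and 3. Trib3, a target of the stress factor ATF4, had a log2 fold of -1.13 (edgeR adjusted p 0.000999), at 6.54 and 8.63 CPM in GFP+ against 17.5 and 15.4 CPM in RFP+ labelled libraries, and -0.95 with offsets. Ppp1cc, a phosphatase catalytic subunit, was higher by 0.66 (edgeR adjusted p 0.00177) and by 0.68 with offsets.

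Of 7 tested genes for mTORC1 and MNK control, 2 were higher and 5 did not pass. Deptor, an mTOR inhibitor, had a log2 fold of 1.54 (edgeR adjusted p 0.000185) at 11.5 and 11.8 CPM in GFP+ against 4.54 and 3.35 CPM in RFP+ labelled libraries, and 1.35 with offsets. Pdcd4, an inhibitor of eIF4A, had 0.54 (edgeR adjusted p 0.0283) and 0.51 with offsets (edgeR adjusted p 0.0471). Without GFP+ library 1, GFP+ library 2 or RFP+ library 2, its edgeR adjusted p was 0.0881, 0.0821 and 0.246 in turn. Mtor itself was near 11 CPM in both populations and did not pass. Of 13 tested poly(A)-binding and cap-associated genes, 4 were higher and 1 lower, and with offsets 3 were called, all higher. Dhps, the enzyme that starts the hypusine modification of eIF5A, was lower by a log2 fold of -0.45, as was Eif5a (edgeR adjusted p 0.0225). It did not pass with offsets, at -0.28, nor without GFP+ library 2 or RFP+ library 2 (edgeR adjusted p 0.123 and 0.161). Dhx29, a scanning helicase, was higher by 0.34 (edgeR adjusted p 0.00415) and by 0.25 with offsets (edgeR adjusted p 0.0458).

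Of 22 cytosolic tRNA synthetases, 5 were higher and 6 lower, and with offsets 2 were higher and 3 lower. Kars and Wars, for lysine and tryptophan, were lower by log2 folds of -0.50 and -0.42 with edgeR adjusted p of 7.21e-05 and 0.0400. With offsets Kars was at -0.43 and passed, and Wars was at -0.36 and did not (edgeR adjusted p 0.0868). Without GFP+ library 1 or RFP+ library 1, Wars had an edgeR adjusted p of 0.320 and 0.292. Of 9 tested mitochondrial translation factors, 1 was higher and 1 lower. With offsets 1 was called, and it was higher. Tsfm, an elongation factor of mitochondria, was lower by -0.41 (edgeR adjusted p 0.0182). With offsets it was -0.29 and did not pass (edgeR adjusted p 0.115), nor did it pass without GFP+ library 2, RFP+ library 1 or RFP+ library 2 (edgeR adjusted p 0.123, 0.0861 and 0.0580). Gfm2, a mitochondrial recycling factor, had 0.36 and did not pass. Of 77 tested cytosolic ribosomal protein genes, 9 were higher and 36 lower, with a median log2 fold of -0.12. With offsets 33 were higher and 15 lower, with a median of 0.09, so the direction of that family turned with the treatment of length and GC content. The factors' median kept its sign, at -0.09 and -0.04.

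In single cells, each cell with at least 1000 counts was thinned to that number, which kept 1419 and 1233 cells of GFP+ and 1545 and 1423 cells of RFP+ labelled libraries. A cell then held 20.95 and 20.2 factor counts on average in GFP+ labelled libraries, against 20.7 and 20.3 in RFP+ labelled ones. Eef1a1 was seen in 91.4% (95% exact interval 89.8 to 92.8) and 88.2% (86.2 to 89.9) of cells in GFP+ labelled libraries, against 78.4% (76.3 to 80.5) and 76.2% (73.9 to 78.4) in RFP+ labelled ones. Without thinning, over all kept cells, the shares were 96.0% and 90.9% in GFP+ against 85.9% and 84.2% in RFP+ labelled libraries. Intervals cover counting error only. At least 2 Eef1a1 counts were found in 70.3% and 63.8% of cells in GFP+ labelled libraries, against 48.4% and 45.6% in RFP+ labelled ones.

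Less abundant factors were read in the same way. Eif4g1 was seen in 36.6% (34.1 to 39.1) and 37.7% (35.0 to 40.5) of thinned cells in GFP+ labelled libraries, against 25.4% (23.2 to 27.6) and 28.9% (26.5 to 31.3) in RFP+ labelled ones. Unthinned, its shares were 48.8% and 45.1% in GFP+ against 35.2% and 36.6% in RFP+ labelled libraries. Eif5a was seen in 31.4% (29.0 to 33.8) and 28.8% (26.3 to 31.4) of thinned cells in GFP+ labelled libraries, against 40.5% (38.1 to 43.0) and 40.2% (37.6 to 42.8) in RFP+ labelled ones. Unthinned, its shares were 43.6% and 37.6% in GFP+ against 51.3% and 50.9% in RFP+ labelled libraries. No cell type that should lack these transcripts was present to give a background share, and the levels in CPM went the same way as the shares. Split by a cell's total, Eef1a1 was at 2629 and 2050 CPM in GFP+ against 1713 and 1582 CPM in RFP+ labelled libraries in cells of 500 to 1000 counts. In cells of 2000 counts or more it was at 2731 and 2287 CPM in GFP+ against 1739 and 1592 CPM in RFP+ labelled libraries. The gap was thus there in shallow and in deep cells.

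After thinning, the spread of factor transcripts from cell to cell was close to that of counting. At the low mean counts of most factors, moderate differences between cells add little to this measure. A value near 1 therefore cannot show that cells were alike. A variance over mean of 1 is that of independent draws at one rate, and over the 37 factors with a mean of at least 0.1 counts per thinned cell the values ran from 0.941 to 1.33, with a median of 1.05. Eif5b had the highest values, with 1.23 and 1.25 in GFP+ labelled libraries and 1.33 and 1.23 in RFP+ labelled ones. Eif3a and Eif3c followed, with means over the 4 libraries of 1.14 and 1.14. For the sum of all factor counts per cell, variance over mean was 1.08 and 1.17 in GFP+ labelled libraries, against 1.18 and 1.16 in RFP+ labelled ones. For the sum of cytosolic ribosomal protein counts, a larger sum in every library, it was 4.81 and 4.76 in GFP+ labelled libraries, against 6.99 and 7.06 in RFP+ labelled ones. Doublets were not removed.

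**Figure D5:**
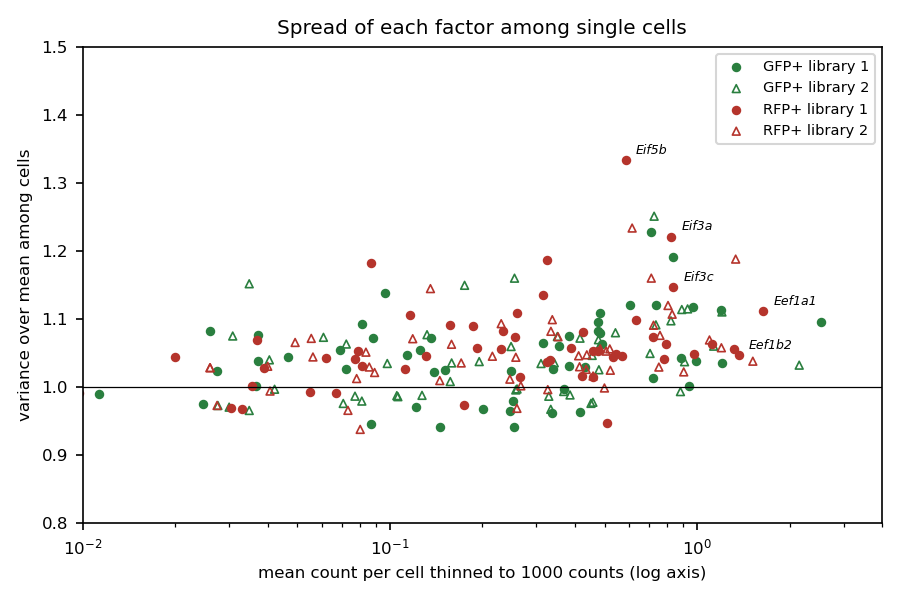
Variance over mean among cells against mean count per cell (log axis) for each factor, in cells thinned to 1000 counts, with GFP+ labelled libraries in green and RFP+ labelled ones in red, circles for library 1 and triangles for library 2. Most points lie close to the line at 1, and Eif5b lies above the others in all 4 libraries.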

How the data were processed

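The authors deposited one table of raw counts per gene and cell, with GRCm38 as the genome build per the submitters' processing notes. For the aligner, the counter, any use of molecular identifiers and the choice of cells, the step is not given in the sources used here. Cells were sorted and run on Drop-seq beads per the labels' protocols. Of 7400 cells, 7390 had 500 counts or more and a mitochondrially encoded share below 20%, and these were kept, and doublets were not removed. Of the barcodes, 2 occurred in more than 1 library, in 8 cells. Libraries of a population differed by more than counting noise (chi-square per degree of freedom 1.47 for GFP+ and 1.43 for RFP+). Per-library sums went into edgeR 4.0.16 under R 4.3.3 (TMM, quasi-likelihood, Benjamini-Hochberg over 7595 genes), with no covariate, a filter of 10 CPM in either population and 20 counts in all. The SE rests on a dispersion moderated across genes. Offsets were a loess fit on length and GC content (span 0.5) in GENCODE M21, where 99.4% of tested genes had a length. Coordinates are GRCm38. The alternatives were DESeq2 1.42.0, RLE factors, other filters, thinned cells, 2 kinds of offset, a replicate block and each library left out. The test was checked on simulated data. Named are the most abundant factor of each group, the 8 largest called changes per direction with at least 50 CPM, a fixed set of 14 factors and the 2 largest changes of each other list. Factors named beyond these were chosen after their values were seen. The members, complexes and lists were chosen with earlier results of these data known.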

Additional observations from a re-analysis of the deposited data

How the results depend on the processing

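Without an alternative, 7 factors were higher and 16 lower. Counts higher and lower were 4 and 8 with DESeq2, 3 and 11 with length and GC offsets, 5 and 11 with offsets from the median transcript length, 7 and 12 in thinned cells and 7 and 16 with RLE factors. With no filter they were 6 and 13 of 55 factors, and with a filter of 50 CPM 6 and 17 of 46. Of all 7595 genes, 958 were higher and 899 lower with length and GC offsets, and 941 and 974 with offsets from the median length. RLE factors gave 1168 and 1139 of 7595, and thinned cells 835 and 782 of 7596. No filter gave 835 and 823 of 15875 genes, and the filter of 50 CPM 839 and 817 of 3496. At the filter of 50 CPM the share of factors higher lay below that of all genes, and the share lower above it. Fits that left out 1 library at a time assume that the lone library varies like the other population, and their counts of factors are not compared here. Over all genes DESeq2 called 364 higher and 370 lower, against 1190 and 1129 in edgeR, and the cause was not tested. With the titles' numbers as a replicate block the counts were 7 and 17 (1262 and 1214 over all genes). With the replicate block and offsets they were 3 and 12 (1019 and 964 over all genes). The titles' numbers do not pair libraries in the labels, and the correlation of their deviations was 0.05 over 1914 genes. Eif5b changed sign with offsets, from 0.17 to -0.0055 (longest transcript), -0.085 (median length) and -0.0056 (replicate block with offsets), none of which passed. Of 312 values of named factors under alternatives, 268 kept their direction and side of the threshold, 38 no longer passed, 3 newly passed and 3 reversed. The number of libraries, 2 per population, limits the precision for factors of low level.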
